A study of Mus musculus with 10 samples.

Results

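The genes that encode the constitutive proteasome, its activators and the proteins that assemble it were followed across 5 groups of SmoM2-expressing mouse epidermal cells. They were chosen by name only: symbols that begin with Psma, Psmb, Psmc, Psmd, Psme, Psmf or Psmg followed directly by a digit, without the immunoproteasome genes Psmb8, Psmb9 and Psmb10 and without pseudogenes. The rule took 47 of the 49671 genes in the table. They comprised 8 alpha and 8 beta subunits of the 20S core, 6 ATPases and 11 other subunits of the 19S cap, 6 activators or inhibitors and 7 assembly chaperones. The 47th, Psmc3ip, carries a proteasome-like symbol but encodes a partner of the meiotic recombinases and is not a subunit. Of the 47 genes, 45 passed the filter on low values (at least 10 normalized counts in at least 2 libraries), as did 21995 of all 49671 genes. The remaining 2 were Psma8, the testis form of an alpha subunit, at 0 in 9 libraries and 3 in the other, and Psmb11, the thymus form of a catalytic subunit, at 0 to 8. Both are at or about the value that 3 reads give (6.76 to 7.80 normalized counts), so neither was called detected.

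The libraries are bulk polyA RNA sequencing of sorted skin epidermal cells that expressed SmoM2-YFP, an active form of Smoothened that drives basal cell carcinoma, and the stated aim concerned Survivin, the protein of Birc5. There were 2 libraries in each group. In Krt14-CREER/Rosa-SmoM2 mice at 6 and at 8 weeks (Krt14 SmoM2) recombination was driven by the keratin 14 promoter, which is active in basal keratinocytes. Krt14-CREER/Rosa-SmoM2/Survivin LOF mice at 6 weeks (Survivin LOF) carried a Survivin loss of function as well. Inv-CREER/Rosa-SmoM2 mice at 8 weeks (Inv SmoM2) used the involucrin promoter, that of a gene of differentiating keratinocytes. Inv-CREER/Rosa-SmoM2/Krt14rtTA/Survivin-GOF mice at 8 weeks (Survivin GOF) added Krt14rtTA and a Survivin gain of function, which cannot be told apart because the Inv SmoM2 labels name neither. The titles write TAM, read here as tamoxifen, after the weeks, so these are not taken as ages. The descriptions of both Inv SmoM2 libraries contain the word pool. Nothing in the labels says that the libraries came from separate animals, so p-values measure the spread between these libraries only, and an exact permutation test of 2 libraries against 2 cannot go below p = 0.333.

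The proteasome is the protease that breaks down proteins tagged with ubiquitin chains. Its barrel-shaped 20S core holds alpha rings, which gate the entrance, and beta rings, in which Psmb6, Psmb7 and Psmb5 carry the caspase-like, trypsin-like and chymotrypsin-like sites. The 19S cap recognises ubiquitin, removes it and unfolds the substrate with a ring of ATPases, and core plus cap form the 26S proteasome. Other caps open the core without ubiquitin, and dedicated chaperones build the rings. In many cell types subunit genes are raised together by the transcription factor Nfe2l1, and in antioxidant responses some are raised by Nfe2l2.

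The libraries totalled 20011195 to 20014054 normalized counts, from 7693155 to 8870758 recovered reads each. Birc5 stood at 961 and 1103 in Krt14 SmoM2 at 6 weeks and at 382 and 429 in Survivin LOF (log2 change -1.34, SE 0.28, limma adjusted p = 0.00429). It stood at 1005 and 926 in Krt14 SmoM2 at 8 weeks, at 237 and 265 in Inv SmoM2 and at 7277 and 16384 in Survivin GOF. Keratinocyte markers were present throughout, with a summed level of 10 genes from 335929 to 545940. The Survivin LOF and GOF libraries stood apart from the other 6 in sex-linked transcripts. Xist, the X-inactivation transcript of female cells, was at 30024 and 59594 in Survivin LOF and at 7589 and 56185 in Survivin GOF, against 51 to 194 in the other 6 libraries. These 4 libraries also held Y-linked transcripts: the sum of Ddx3y, Eif2s3y, Kdm5d and Uty was 3718 and 2445 in Survivin LOF and 8487 and 2557 in Survivin GOF, against 5675 to 8233. Whether these libraries hold cells of both sexes was not tested. Counts of called proteasome genes in comparisons with these libraries are also given with sex-linked levels as a covariate. In bulk samples, fewer cells of a type and less RNA per cell cannot be told apart.

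Promoter windows of RefSeq (GRCm38.p6, 250 bases before to 50 after a start site) were found for 39 of the 47 genes, 42 windows in all. The 4 below are shown because Psmb5, Psmd12 and Psma5 differed most between Survivin LOF and its control, and because Psmd2 had the highest level per kb of exon among the cap subunits that are not ATPases. They are trimmed before the first annotated exon. Capitals mark the motif matches, found on either strand: the antioxidant response element core TGACNNNGC, which Nfe2l1 and Nfe2l2 bind, and the ETS core CCGGAAG.
Psmb5, chr14:54618023-54618245, minus strand: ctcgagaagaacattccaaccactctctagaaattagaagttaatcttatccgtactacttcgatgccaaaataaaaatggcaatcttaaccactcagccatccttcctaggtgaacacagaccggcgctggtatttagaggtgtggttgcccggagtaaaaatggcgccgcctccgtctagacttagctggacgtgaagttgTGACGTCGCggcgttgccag
Psmd12, chr11:107479278-107479483, plus strand: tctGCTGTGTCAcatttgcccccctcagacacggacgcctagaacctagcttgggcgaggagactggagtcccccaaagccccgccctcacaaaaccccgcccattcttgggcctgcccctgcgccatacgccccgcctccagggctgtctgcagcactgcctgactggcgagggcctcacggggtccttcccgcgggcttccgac
Psma5, chr3:108256676-108256925, plus strand: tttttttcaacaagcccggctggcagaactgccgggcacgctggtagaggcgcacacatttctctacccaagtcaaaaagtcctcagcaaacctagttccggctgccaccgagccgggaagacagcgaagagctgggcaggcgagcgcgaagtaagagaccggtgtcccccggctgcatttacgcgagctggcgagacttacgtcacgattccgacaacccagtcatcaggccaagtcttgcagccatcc
Psmd2, chr16:20651402-20651651, plus strand: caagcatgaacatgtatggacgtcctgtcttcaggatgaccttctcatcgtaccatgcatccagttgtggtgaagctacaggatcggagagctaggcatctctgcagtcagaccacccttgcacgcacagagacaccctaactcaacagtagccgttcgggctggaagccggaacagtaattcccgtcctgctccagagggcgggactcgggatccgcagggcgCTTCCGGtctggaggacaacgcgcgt
The antioxidant element core lay 47 bases before the start site in Psmb5 and 247 bases before it in Psmd12, on the opposite strand. Psmd2 had an ETS core 26 bases upstream, and Psma5 had neither motif in the stretch shown. The ETS core of the Psmd12 window lies outside the stretch shown. The antioxidant core was present in 14.3% of the proteasome windows, against 12.4% of all 32851 windows and 14.0% of the 15528 windows of tested genes. The ETS core was present in 38.1% of the proteasome windows, against 8.86% of all windows and 14.9% of those of tested genes. The nuclear respiratory factor core was present in 16.7% of the proteasome windows, against 4.60% and 8.44%. The interferon-stimulated response element core was present in 11.9%, against 3.44% and 2.98%, and its 5 genes were Psmb3, Psmd4, Psmd9, Psme1 and Psmg4. The other motifs searched were the CCAAT box CCAAT (33.3%, against 37.4% and 37.0%), the TATA box TATAAA (7.14%, against 13.6% and 7.99%) and the cyclic AMP response element TGACGTCA (0 of 42 windows, against 1.79% and 2.81%). Each motif was counted on its own, whether or not its matches overlapped those of another. These motifs were chosen with values in view, the shares are descriptions, and a match shows letters, not binding.

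Levels were compared per kilobase of exon, over tested genes. Mean levels over the 10 libraries ran from 478 (Psma3) to 1614 (Psma6) normalized counts per kb in the alpha ring, from 348 (Psmb7) to 1629 (Psmb2) in the beta ring, from 349 (Psmc2) to 1045 (Psmc5) among 19S ATPases and from 428 (Psmd13) to 1090 (Psmd2) among the other 19S subunits. The highest was 3.37 times the lowest in the alpha ring and 4.68 times in the beta ring, which leaves out Psma8 and Psmb11 at 0.12 and 0.83 per kb. Activators spanned 76.8 (Psme2b) to 812 (Psme3) and chaperones 59.9 (Psmg3) to 486 (Psmg4). The medians were 766, 557, 863, 654, 448 and 179 per kb in that order of classes, so the chaperones were the lowest class. Survivin LOF was the lowest of the 5 groups for 28 of the 31 tested 26S subunits, and Krt14 SmoM2 at 6 weeks was the highest for 21. The heat map of single libraries shows this as a pair of blue columns across the core and cap, from which the PA28 pair, Psme2b, Psmf1 and the chaperones depart, while Psme3 and Psme4 were low there too.

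**Figure D1:**
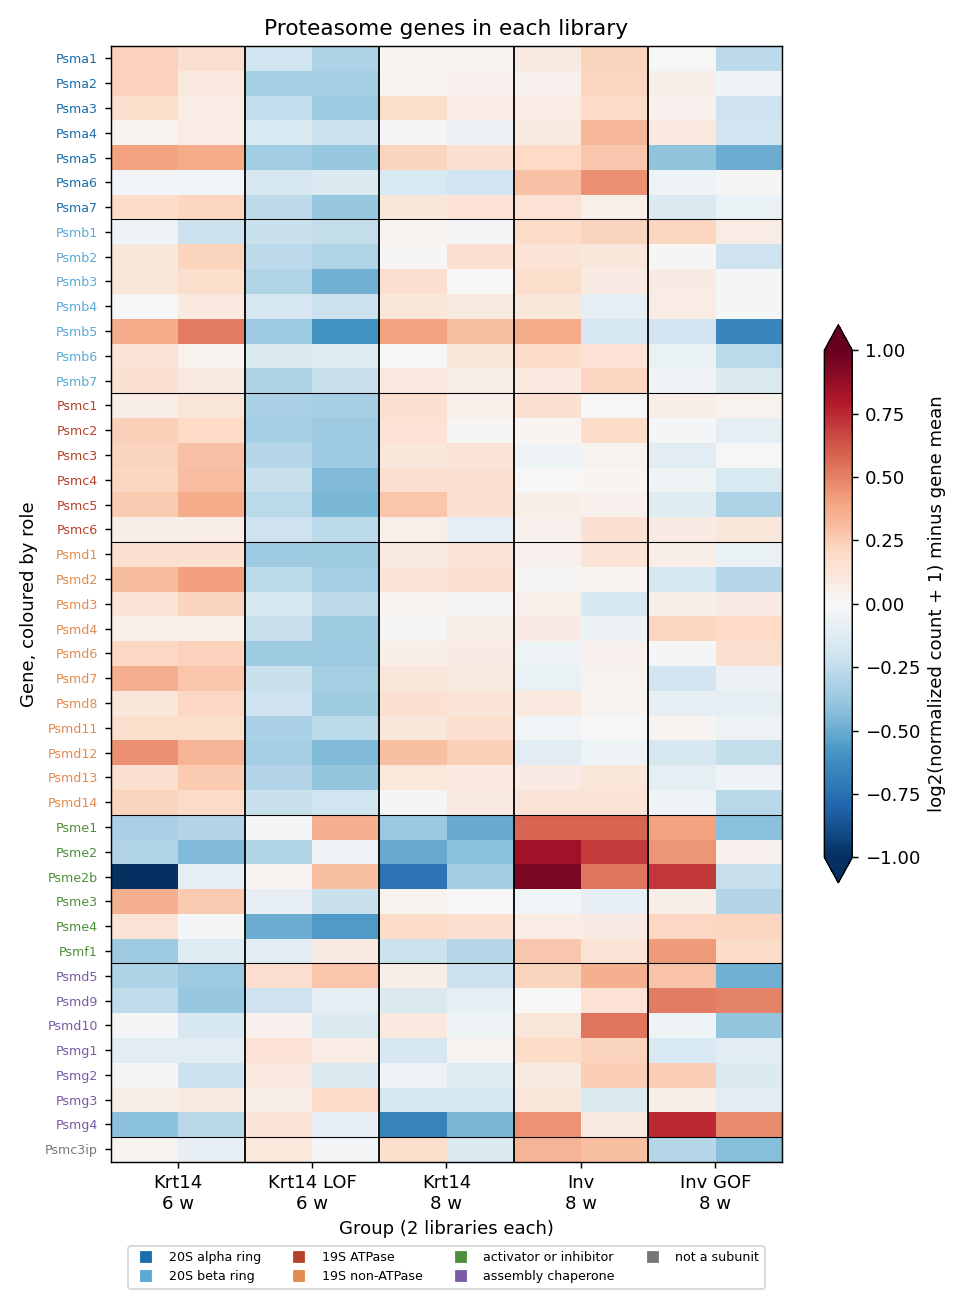
Level of each of the 45 tested genes in each of the 10 libraries, as log2(normalized count + 1) minus the gene's mean over libraries (colour, red higher and blue lower, saturated beyond 1), with genes coloured by role. The 2 Survivin LOF columns are below the gene mean for every 26S subunit, and Psme1, Psme2 and Psme2b are highest in Inv SmoM2.

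The genes with the highest and lowest counts of each class moved across the groups as follows. In the alpha ring, Psma1 was at 2632 and 2513 in Krt14 SmoM2 at 6 weeks, 1958 and 1815 in Survivin LOF, 2284 and 2293 in Krt14 SmoM2 at 8 weeks, 2392 and 2622 in Inv SmoM2 and 2246 and 1867 in Survivin GOF. In the beta ring, Psmb1 was at 2470 and 2196, then 2181 and 2158, 2592 and 2507, 2906 and 2961, and 2951 and 2676 in the same order of groups. Psmb1 thus had its lowest values in Survivin LOF too, but next to those of its control. In the cap, the ATPase Psmc6 (Rpt4) was at 3144 and 3148, 2614 and 2494, 3124 and 2841, 3097 and 3351, and 3182 and 3253, and Psmc1 (Rpt2) at 1321 and 1377, 1009 and 1002, 1414 and 1311, 1402 and 1260, and 1325 and 1293. Psmd13 (Rpn9), a lid subunit, was at 1596 and 1713, 1167 and 1092, 1541 and 1530, 1516 and 1554, and 1347 and 1386. For these 3 cap genes the Survivin LOF pair was the lowest of the 5 pairs, and the other groups lay near each other. Psmd2, the cap gene with the highest mean, was at 5410 and 5775, 3605 and 3427, 4771 and 4823, 4362 and 4406, and 3874 and 3554. The activator gene Psme4 was at 6590 and 5966, 4260 and 4059, 6813 and 6755, 6319 and 6336, and 6918 and 6983. Psme2b, the lowest of that class, was at 27 and 55, 60 and 73, 35 and 46, 114 and 86, and 97 and 50. Among chaperones, Psmd5 was at 741 and 716, 1036 and 1117, 963 and 791, 1072 and 1175, and 1119 and 661. Psmg3 (PAC3), which helps start the alpha ring, was at 180 and 184, 181 and 197, 153 and 154, 187 and 156, and 181 and 159, with overlapping values in most groups.

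Survivin LOF against Krt14 SmoM2 at 6 weeks asks what changed in the basal-driven tumour cells when Survivin function was reduced. Of the 45 tested proteasome genes, 28 fell and 0 rose, against a background of 30.9% of all tested genes called (19.5% higher, 11.4% lower). limma-voom also called 0 rises and 28 falls. The median log2 change was -0.42, while that of all tested genes was 0.16, and 33 genes lay below 0. All 31 tested 26S subunits were below 0 and 26 of them fell, with a median of -0.47. Rescaling by the median of ratios moved the median of all genes from 0.16 to 0.02, and the proteasome genes lay 0.58 and 0.59 below that median under the deposited and the rescaled values. The share of higher calls among all called genes was 63.1% as deposited and 49.0% after rescaling.

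The 19S cap fell as a whole. All 6 ATPases (Psmc1 to Psmc6) fell, by 0.30 to 0.68 on the log2 scale, and all 11 other cap subunits fell, by 0.34 to 0.79. Psmd12 (Rpn5), a scaffold subunit of the lid (ENSMUSG00000020720, chr11:107479484-107504362, GRCm38), had 1420 and 1319 normalized counts in Survivin LOF against 2458 and 2273, a log2 change of -0.79 (SE 0.10, adjusted p = 0.000206). Psmd2 (Rpn1), the base subunit that docks ubiquitin receptors (ENSMUSG00000006998, chr16:20651652-20663414), had 3605 and 3427 against 5410 and 5775 (-0.67, SE 0.09, adjusted p = 0.000257). In both genes the 2 Survivin LOF libraries lay closer to each other than to either control. Psmc5 (Rpt6) was at 1190 and 1044 against 1720 and 1857 (-0.68, SE 0.12, adjusted p = 0.00137). Psmc4 (Rpt3) was at 1693 and 1457 against 2303 and 2456 (-0.60, SE 0.10, adjusted p = 0.00155). Both encode subunits of the hexameric ring that pulls substrates into the core. The lid subunit Psmd7 (Rpn8), partner of the deubiquitinase Psmd14, was at 1472 and 1362 against 2205 and 2079 (-0.60, SE 0.10, adjusted p = 0.00135).

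In the 20S core, 5 of 7 tested alpha and 4 of 7 tested beta subunits fell. Psma5, an alpha ring subunit (ENSMUSG00000068749, chr3:108256926-108279974), was at 977 and 954 in Survivin LOF against 1644 and 1609 (-0.75, SE 0.10, adjusted p = 0.000302). Psmb5, the chymotrypsin-like subunit and the target of bortezomib (ENSMUSG00000022193, chr14:54614119-54618022, minus strand), was at 280 and 237 against 466 and 514 (-0.92, SE 0.21, adjusted p = 0.00755). Its groups did not overlap, but the call was lost without replicate 2 of either group (adjusted p = 0.0623 and 0.0686), and over 16 alternatives the adjusted p ran from 0.00192 to 0.862. Mir686, a microRNA gene, overlaps 12.1% of the exon length of Psmb5. Psmb7, the trypsin-like subunit, was at 949 and 1013 against 1312 and 1261 (-0.39, SE 0.11, adjusted p = 0.0165). It lost its call without any of 3 of the 4 libraries (adjusted p = 0.0654 to 0.0929). Psmb6, the caspase-like subunit, missed the threshold, with 1073 and 1089 against 1295 and 1217 (-0.22, SE 0.11, adjusted p = 0.169). The other core subunits that did not pass were Psma4 (-0.24), Psma6 (-0.12), Psmb1 (-0.10) and Psmb4 (-0.24). Whether the cap fell more than the core was not tested; the medians were -0.55 for 17 cap and -0.44 for 14 core subunits.

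Activators parted by type. Psme4 (PA200), a single-chain nuclear activator, was at 4260 and 4059 against 6590 and 5966 (-0.59, SE 0.08, adjusted p = 0.000441), and Psme3 (PA28 gamma), the nuclear ring activator, fell by 0.46. The interferon-inducible PA28 pair did not pass: Psme1 was at 1039 and 1344 against 841 and 858 (0.48, adjusted p = 0.124) and Psme2 at 541 and 643 against 543 and 491 (0.19, adjusted p = 0.394). Psme2b, a near-identical copy of Psme2 whose reads may be shared with it, had 60 and 73 against 27 and 55. Psmf1, the inhibitor PI31, changed by 0.23 and did not pass. Of the 7 chaperones, limma called 0 (1 at an unadjusted p under 0.05) and limma-voom 0. All lay above 0, with a median of 0.17 beside the 0.16 of all genes, but after rescaling their median was 0.03 and 3 lay below 0. Psmd5, which holds the ATPase ring during assembly, was at 1036 and 1117 against 741 and 716 (0.56, SE 0.20, adjusted p = 0.0589).

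**Figure D2:**
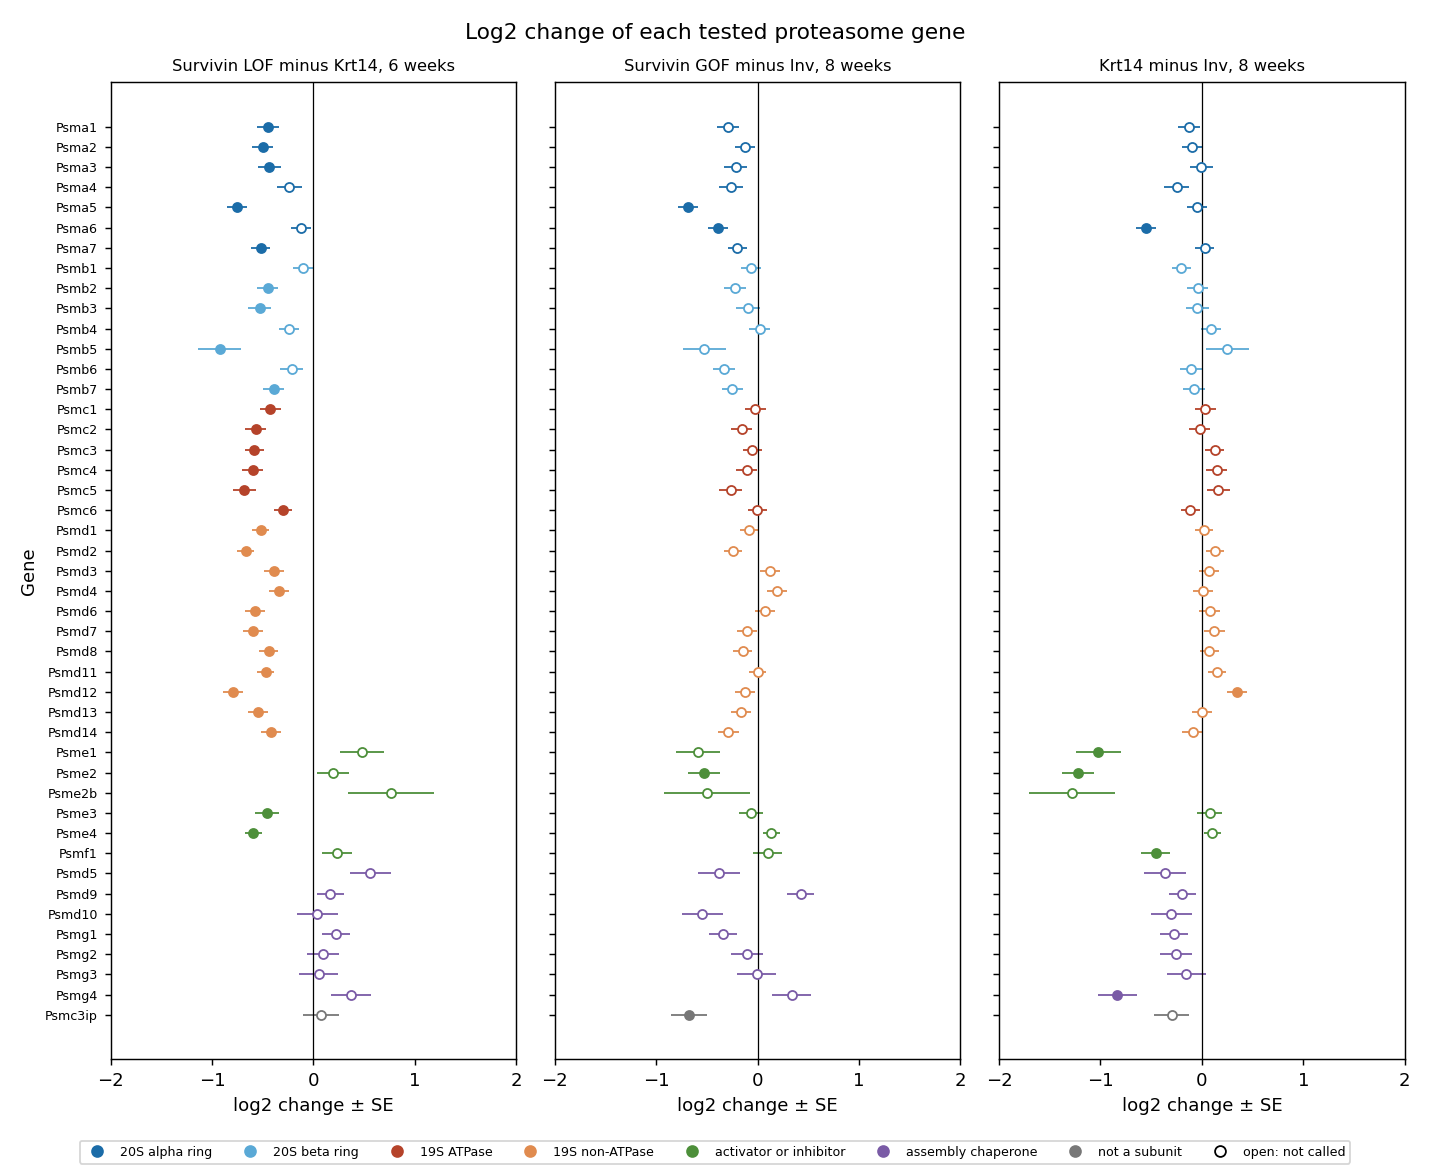
Log2 change of each tested proteasome gene with its limma standard error (bars) in 3 comparisons. Points are coloured by role, filled where the adjusted p was under 0.05 and open otherwise. In the left panel all 17 cap subunits are filled and left of 0, while the 7 chaperones are open and right of 0. The middle and right panels hold 4 and 6 filled points.

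The calls in Survivin LOF depended on whether and how a sex-linked level was a covariate. With the log2 Xist level, 1 proteasome gene was called, the chaperone gene Psmd5, which was higher, and none of the 28 falls remained. That fit called 941 of all 21995 tested genes, against 6805 without the covariate. The median change of the proteasome genes was 0.0004 beside 0.28 for all tested genes, and 7 of the 28 had the opposite sign. The cap stayed below 0 in that fit for all 11 subunits that are not ATPases (median -0.37) and for 5 of 6 ATPases (median -0.17), none of them called. Over 16 alternatives Psmd7 lay between -0.79 and -0.54 (limma adjusted p up to 0.266) and Psme4 between -0.73 and -0.52 (up to 0.29). The highest values of the other genes named above were -0.49 for Psmd12, -0.44 for Psma5, -0.28 for Psmd2 and -0.11 for Psmc4. Psmc5 and Psmb5 reached 0.11 and 0.33. A sex-linked covariate takes its slope from differences between the 2 libraries of a group, which for Xist were widest in Survivin GOF. Between Survivin LOF and its control Xist differed by 9.15 on the log2 scale, more than within any group. The log2 Xist fit thus extends its slope beyond those differences, and in it the Xist level and the group cannot be told apart. With the linear Xist level as covariate, 15 of the 28 falls remained, with a median of -0.29 beside 0.21 for all genes, and 33 proteasome genes stayed below 0. With the summed Y-linked level, all 28 remained, with a median of -0.33 beside 0.20. Each of these fits also called 2 proteasome genes higher. Over all tested genes these fits called 5083 and 7460. Under the linear Xist level 11 of 17 cap subunits were called lower, and under the Y-linked sum 17 of 17. Without Survivin LOF replicate 1 or 2 the median was -0.44 or -0.39, beside 0.18 or 0.15 for all genes. Without Krt14 SmoM2 replicate 1 or 2 it was -0.41 or -0.40, beside 0.19 or 0.11. Markers of other cell types were also called, in a comparison where 19.5% of all tested genes were higher and 11.4% lower. Of 8 melanocyte markers 7 were higher in Survivin LOF (summed level 3175 and 3016 against 942 and 901). Of 8 sebocyte markers 5 were higher (12036 and 14623 against 8680 and 8687), and 2 of 7 tested fibroblast markers were higher. The fibroblast sum, 19301 and 19437 against 2985 and 1538, was mostly Dcn (17993 and 18053 against 2205 and 1163), while Col1a1 was at 117 and 93 against 218 and 75 and Col3a1 at 30 and 21 against 103 and 24. None of the genes on these lists was at 0 in all 10 libraries. Of 10 keratinocyte markers 2 fell and 1 rose. Of 7 tested Langerhans cell and macrophage markers 3 rose (summed level 841 and 1647 against 500 and 412). Of 12 immediate early genes 3 rose and 5 fell, and of 8 endothelial markers 1 rose and 1 fell. One each of 4 tested T cell and 3 tested neutrophil markers fell. The part of these cells and genes in the fall of proteasome genes was not tested.

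Survivin GOF against Inv SmoM2 at 8 weeks asks what changed when the Survivin gain of function and Krt14rtTA were added together in the differentiation-driven cells. Of the 45 genes, 4 fell and 0 rose, a share below the background of 15.3% of all tested genes (6.87% higher, 8.4% lower). limma-voom called 5, of which 1 was higher. The median was -0.15 beside -0.01 for all genes, and 36 genes lay below 0. A fit to these 4 libraries alone called 0, with 5 at an unadjusted p under 0.05, and called 258 of all 21995 tested genes.

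Psma5 was at 936 and 879 in Survivin GOF against 1427 and 1495 in Inv SmoM2 (-0.69, SE 0.10, adjusted p = 0.00153), and it kept its call without any one library. Psma6, another alpha ring subunit, was at 1902 and 1989 against 2408 and 2712 (-0.39, SE 0.10, adjusted p = 0.0201). Psme2 (PA28 beta) was at 905 and 687 against 1193 and 1082 (-0.53, SE 0.16, adjusted p = 0.0455). Psmc3ip, the fourth gene, is not a subunit and was at 195 and 177 against 301 and 294 (-0.68, SE 0.18, adjusted p = 0.0265). Exons of Psmc3ip overlap those of Mlx on the opposite strand over 21.2% of their length, and the strand setting of the counting is not given in the sources used here, so reads of the pair cannot be told apart. Without 1 library or another, Psma6 (adjusted p up to 0.167), Psme2 (up to 0.232) and Psmc3ip (up to 0.130) lost their calls. Psmb5 missed the threshold, with 315 and 229 against 467 and 321 (-0.53, SE 0.21, adjusted p = 0.123), and the groups lay close, at 315 and 321. Psmb6 had 1133 and 986 against 1347 and 1310 (-0.33, SE 0.11, adjusted p = 0.0699). The values of Psmb7 were 1152 and 1072 against 1268 and 1376 (-0.25, SE 0.11, adjusted p = 0.139). Neither passed, although the groups of each did not overlap.

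The 2 Survivin GOF libraries differed from each other. Psme1 was at 1388 in replicate 1 and 788 in replicate 2, and Psmb5 at 315 and 229. The second of them also held the higher Birc5 (16384) and Xist (56185). Without replicate 1 the median change of the proteasome genes was -0.18 beside -0.08 for all tested genes. Without replicate 2 it was -0.09 beside 0.05. Without Inv SmoM2 replicate 1 it was -0.19 beside 0, and without Inv SmoM2 replicate 2 it was -0.14 beside -0.05. The log2 Xist covariate left 0 called and the linear one 2, in fits that called 40 and 1800 of all 21995 tested genes. Xist differed by 6.94 on the log2 scale here, so its level and the group cannot be told apart in the log2 fit. Sebocyte markers moved in the same comparison, with 7 of 8 lower in Survivin GOF (13601 and 13257 against 51106 and 48342), beside 8.4% of all tested genes. Of 12 immediate early genes 8 were higher, as were 6 of 10 keratinocyte markers, beside 6.87% of all tested genes. Endothelial markers summed to 501 in Survivin GOF replicate 1 and 1611 in replicate 2, against 500 and 495 in Inv SmoM2, with Kdr at 41 and 294 and Cldn5 at 22 and 276 in the Survivin GOF replicates. Fibroblast markers summed to 38342 and 15152 in Survivin GOF, of which Dcn was 37402 and 14512. In Inv SmoM2 they summed to 18452 and 20512, between the 2 Survivin GOF values, and 0 of 7 tested fibroblast markers were called. Of 8 endothelial, 8 melanocyte and 3 tested neutrophil markers 0 were called. Of 4 tested T cell markers 1 was lower, and of 7 tested Langerhans cell and macrophage markers 1 was higher. The part of these cells in the result was not tested.

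Krt14 against Inv SmoM2 at 8 weeks compares cells in which 1 or the other promoter drove the recombination that led to SmoM2 expression. Of the 45 genes, 5 were lower and 1 was higher with the Krt14 driver, against a background of 19.6% (11.4% lower, 8.18% higher), and limma-voom called 7. The median was -0.05 beside -0.10 for all genes, and 0.05 beside -0.01 after rescaling, so the sign of the median depended on the scaling. Of the 5 lower genes, 3 are activators or inhibitors. Psme2 was at 470 and 503 in Krt14 SmoM2 against 1193 and 1082 in Inv SmoM2 (-1.22, SE 0.16, adjusted p = 0.000363). Psme1 (PA28 alpha), its partner in the heptameric ring and its neighbour on chromosome 14 (55578123 to 55581529, with Psme2 at 55587441 to 55591113), was at 813 and 740 against 1570 and 1577 (-1.02, SE 0.22, adjusted p = 0.00771). Psmf1, the inhibitor, was at 563 and 536 against 788 and 719 (-0.45, SE 0.14, adjusted p = 0.0480).

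Psmg4 (PAC4), a chaperone of alpha ring assembly, was at 162 and 187 against 353 and 274 (-0.83, SE 0.19, adjusted p = 0.0120). Psma6 was at 1773 and 1717 against 2408 and 2712 (-0.55, SE 0.10, adjusted p = 0.00251). Psmd12 was the gene that was higher, at 2214 and 2112 against 1661 and 1732 (0.35, SE 0.10, adjusted p = 0.0287). Psme2 and Psma6 kept their calls without any one library. Psme1, Psmg4, Psmf1 and Psmd12 each lost theirs without at least 1 library. Their changes then ran from -1.09 to -0.95, -1.02 to -0.65, -0.52 to -0.39 and 0.32 to 0.38. Psmb5 missed the threshold, with 477 and 444 against 467 and 321 (0.25, SE 0.21, adjusted p = 0.472). Psmb6 (-0.10, adjusted p = 0.583) and Psmb7 (-0.08, adjusted p = 0.678) did not pass either, with 1183 and 1293 and with 1268 and 1237 in Krt14 SmoM2. Of 8 sebocyte markers 7 were lower with the Krt14 driver, beside 11.4% of all tested genes. So were 4 of 8 melanocyte, 3 of 7 tested fibroblast, 2 of 8 endothelial and 1 of 7 tested Langerhans cell and macrophage markers. Of 10 keratinocyte markers 6 were higher, as was 1 of 4 tested T cell markers, and 0 of 3 tested neutrophil markers were called. Of 12 immediate early genes 10 were higher, beside 8.18% of all, with sums of 63972 and 64169 against 21960 and 17898. Their part in the result was not tested.

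**Figure D3:**
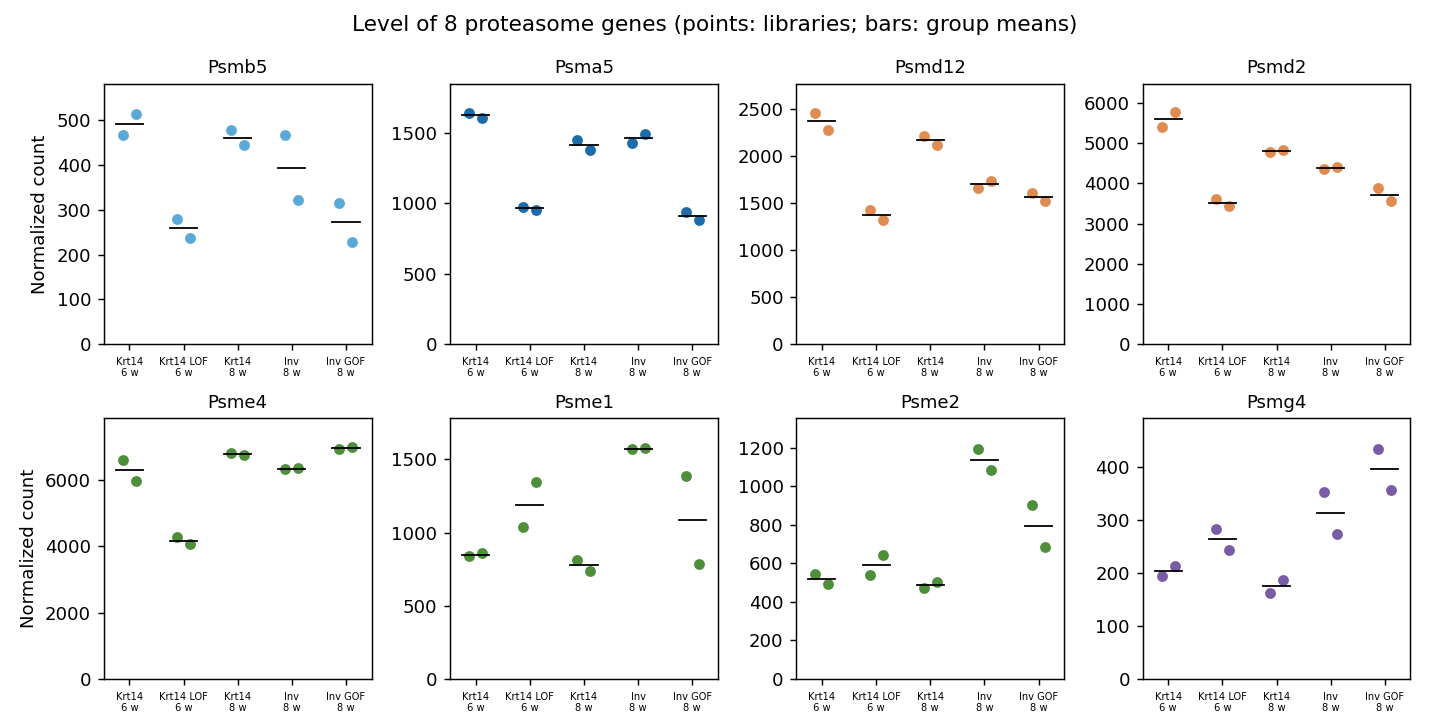
Normalized counts of 8 proteasome genes in each library (points) with the group mean (bar), on axes that start at 0. Psmb5, Psma5, Psmd12 and Psmd2 are lowest in Survivin LOF or Survivin GOF, Psme4 is low in Survivin LOF at 4260 and 4059, and Psme1 and Psme2 are highest in Inv SmoM2.

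Survivin GOF was also set beside Krt14 SmoM2 at 8 weeks. The groups differ in driver, in Survivin and in Krt14rtTA, which the Krt14 SmoM2 labels do not name, and the comparison shares its libraries with those above. Of the 45 genes, 4 were higher and 5 lower, against a background of 27.7% (15.2% higher, 12.5% lower), and limma-voom called 9. The median was -0.11 beside 0.09 for all genes. Psmg4 was at 433 and 357 in Survivin GOF against 162 and 187 (1.17, SE 0.19, adjusted p = 0.00137). Psmd9 (p27), a chaperone of the ATPase ring, was at 703 and 695 against 447 and 465 (0.62, SE 0.13, adjusted p = 0.00567), but exons of Gm26745 on the opposite strand cover 25.5% of its exon length. Psme2 (0.70, SE 0.16) and Psmf1 (0.55, SE 0.14) were the other genes that were higher. These 4 are regulators or chaperones, and the 5 that were lower are 26S subunits; whether the roles differed was not tested.

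The lower genes were Psmb5 at 315 and 229 against 477 and 444 (-0.77, SE 0.21, adjusted p = 0.0196), Psma5 (-0.64, SE 0.10), Psmd12 (-0.47, SE 0.10), Psmc5 (-0.43, SE 0.12) and Psmd2 (-0.37). For Psma5, the values were 936 and 879 against 1449 and 1378. Psmb5, Psmc5, Psmd12, Psme2 and Psmf1 each lost their calls without at least 1 library, while Psma5, Psmd9 and Psmg4 kept theirs. The count was 3 in a fit to these 4 libraries alone (2660 over all tested genes). With the log2 Xist covariate it was 0 (202 over all tested genes), with 6 genes at an unadjusted p under 0.05, and with the linear one 6 (4398 over all). Without Krt14 SmoM2 replicate 1 or 2 the median was -0.12 in both cases, beside 0.06 or 0.10 for all genes. Without Survivin GOF replicate 1 or 2 it was -0.16 or -0.05, beside 0.03 or 0.15. Psmb6 (-0.23, SE 0.11, adjusted p = 0.159) and Psmb7 (-0.17, SE 0.11, adjusted p = 0.257) did not pass. Of the marker lists, 2 of 7 tested fibroblast genes were higher (38342 and 15152 against 2497 and 1885, mostly Dcn), as were 4 of 8 endothelial genes, beside 15.2% of all tested genes. Beside 12.5% of all tested genes lower, 3 of 4 tested T cell genes were lower (146 and 98 against 466 and 385). So were 6 of 12 immediate early genes (27944 and 41710 against 63972 and 64169), 1 of 8 endothelial genes and 1 of 3 tested neutrophil genes. Of 8 melanocyte genes 3 were higher, as was 1 of 7 tested Langerhans cell and macrophage genes. Of 10 keratinocyte genes 2 were higher and 3 lower, and of 8 sebocyte genes 1 was higher and 2 lower. Their part in the result was not tested.

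Between Krt14 SmoM2 at 8 and at 6 weeks, limma called 0 of the 45 genes, with 2 at an unadjusted p under 0.05, against a background of 4.88% of all genes (4.02% higher, 0.855% lower), and limma-voom called 0 with 3. The median was -0.09 beside 0.14 for all genes, which rescaling took to -0.23 beside 0.0003 with 2 genes called (1111 over all tested genes). After rescaling 17 genes had an unadjusted limma p under 0.05, and 43 lay below 0 against 33 as deposited. As deposited, the genes at an unadjusted limma p under 0.05 were Psmd2, at 4771 and 4823 against 5410 and 5775, and Psme3, at 2432 and 2380 against 3034 and 2852. Both were lower at 8 weeks. Psmb5 (-0.09, adjusted p = 0.852), Psmb6 (-0.02, adjusted p = 0.941) and Psmb7 (-0.04, adjusted p = 0.873) did not pass. The share of higher calls among all called genes was 82.5% as deposited and 53.7% after rescaling. Higher at 8 weeks were 6 of 8 sebocyte markers, 4 of 8 melanocyte markers and 5 of 12 immediate early genes. So were 1 of 8 endothelial and 1 of 3 tested neutrophil markers. Lower were 4 of 10 keratinocyte and 1 of 7 tested fibroblast markers. Of the tested T cell, Langerhans cell and macrophage markers 0 were called. The part of these genes in the result was not tested.

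The make-up of proteasome transcripts can be read from sums and from ratios per kb. The 31 tested 26S subunits made up 0.352% and 0.354% of normalized counts in Krt14 SmoM2 at 6 weeks and 0.261% and 0.250% in Survivin LOF. They made up 0.332% and 0.329% in Krt14 SmoM2 at 8 weeks, 0.327% and 0.334% in Inv SmoM2, and 0.309% and 0.293% in Survivin GOF. Survivin LOF was thus lowest and Survivin GOF next, and the other 3 groups were higher. The ratio of the mean cap level to the mean core level per kb was 0.945 and 0.962 in Krt14 SmoM2 at 6 weeks, 0.874 and 0.851 in Survivin LOF, 0.933 and 0.925 in Krt14 SmoM2 at 8 weeks, 0.811 and 0.802 in Inv SmoM2 and 0.882 and 0.940 in Survivin GOF. This ratio was lowest in Inv SmoM2. The ratio of PA28 alpha and beta to the core was 0.583 and 0.753 in Survivin LOF and 0.789 and 0.741 in Inv SmoM2, against 0.401 and 0.387 in Krt14 SmoM2 at 6 weeks and 0.389 and 0.382 at 8 weeks. It was 0.738 and 0.529 in Survivin GOF.

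The immunoproteasome subunits replace the catalytic ones of the core and are outside the 47 genes. Psmb8 takes the place of Psmb5. Its share of the per-kb level of the pair was 12.2% and 13.9% in Krt14 SmoM2 at 6 weeks and 22.7% and 23.8% in Survivin LOF. It was 10.4% and 10.2% in Krt14 SmoM2 at 8 weeks, 21.9% and 26.9% in Inv SmoM2 and 43.4% and 35.2% in Survivin GOF. In Survivin LOF the share was higher while Psmb8 itself stood at 310 and 278 against 244 and 313 and Psmb5 fell. Psmb8 was at 209 and 189 in Krt14 SmoM2 at 8 weeks, at 492 and 445 in Inv SmoM2 and at 909 and 468 in Survivin GOF. It was lower with the Krt14 than with the Inv driver (-1.23, SE 0.26, adjusted p = 0.00781), as was Psmb10 (-1.44, SE 0.31, adjusted p = 0.00835).

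**Figure D4:**
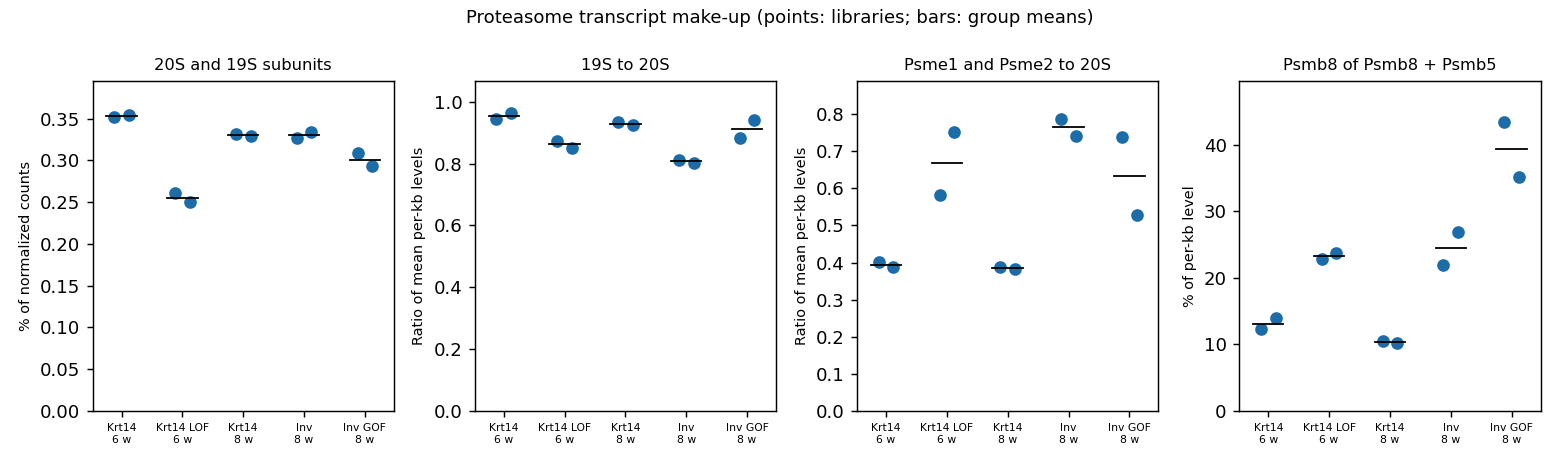
Proteasome transcript make-up in each library (points) with group means (bars), on axes that start at 0: the share of normalized counts held by 26S subunits, the ratios of cap to core and of PA28 alpha and beta to core from mean levels per kb, and the share of Psmb8 in the per-kb level of Psmb8 and Psmb5. Survivin LOF has the lowest 26S share, 0.261% and 0.250%, and Survivin GOF the highest Psmb8 share.

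Genes that act with the proteasome were read from fixed lists. Of 12 proteasome-associated factors, 9 fell and 1 rose in Survivin LOF (median -0.36 beside 0.16 for all genes), where 30.9% of all genes were called (19.5% higher, 11.4% lower). They included the ubiquitin receptor Adrm1 (Rpn13), at 840 and 679 against 1051 and 1044 (-0.47, SE 0.14, adjusted p = 0.0275), and the thioredoxin-like cap factor Txnl1 (-0.45, SE 0.10). Zfand5, a proteasome activator, was at 2513 and 2539 against 4333 and 4179 (-0.75, SE 0.15, adjusted p = 0.00313), and its relative Zfand2a, induced by heat and arsenite, was higher (0.67, SE 0.21, adjusted p = 0.031). In the comparisons of Survivin GOF with Inv SmoM2 and of Krt14 with Inv SmoM2 the same list gave 1 lower, and 1 higher with 2 lower, beside 15.3% and 19.6% of all genes called. Of 11 genes that deliver ubiquitinated proteins, 5 fell and 1 rose in Survivin LOF (median -0.24 beside 0.16 for all genes). The shuttle gene Rad23b was at 4131 and 4061 against 5520 and 5974 (-0.49, SE 0.08, adjusted p = 0.00153), Nploc4, a cofactor of the unfoldase Vcp, changed by -0.47 and the shuttle gene Ubqln1 by -0.37. Ufd1l, the other Vcp cofactor, was higher (0.44, SE 0.12, adjusted p = 0.0203). Calls on the delivery list were not limited to Survivin LOF. It gave 2 higher and 3 lower in Survivin GOF against Inv SmoM2, and 3 higher and 5 lower against Krt14 SmoM2, where 15.3% and 27.7% of all genes were called. In Krt14 against Inv SmoM2 (19.6%) it gave 1 higher and 1 lower, and between 8 and 6 weeks (4.88%) 0.

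Of 9 regulators of proteasome genes, 1 fell and 1 rose in Survivin LOF, a share below the 30.9% of all genes. Nfe2l2 (Nrf2) was at 1376 and 1369 against 2351 and 2870 (-0.92, SE 0.12, adjusted p = 0.000279), and Ngly1, which deglycosylates Nfe2l1, was higher (0.41, SE 0.12, adjusted p = 0.0267). Nfe2l1 itself was at 3873 and 3937 against 4369 and 4770 and was called in none of the 5 comparisons. Nfe2l2 was at 1609 and 1828 in Survivin GOF against 897 and 951 in Inv SmoM2 (0.89, SE 0.12, adjusted p = 0.00101) and at 1826 and 2000 in Krt14 SmoM2 at 8 weeks (1.05, SE 0.12, adjusted p = 0.00017). Maff, a small partner of both factors, was at 227 and 575 in Survivin GOF against 92 and 57 (2.30, SE 0.40, adjusted p = 0.00396). These were the 2 regulators of 9 called in that comparison, where 15.3% of all genes were called. Uba1, the main E1 enzyme that activates ubiquitin, was at 6180 and 6304 in Survivin LOF against 7830 and 8244 (-0.36, SE 0.12, adjusted p = 0.0436). The calls on these lists also depended on the covariate. In Survivin LOF, 1 of the 10 called associated factors (Zfand5), 0 of the 6 delivery genes and 0 of the 2 regulators kept their calls with the log2 Xist level. With the linear Xist level 3, 2 and 2 kept them, and with the Y-linked sum 6, 5 and 2. Over all tested genes the 3 covariates left 941, 5083 and 7460 called, against 6805 without one. Uba1 lost its call under each of the 3 (adjusted p = 0.345, 0.712 and 0.117), and at the log2 Xist level its change was 0.64. In Survivin GOF against Inv SmoM2, Nfe2l2 and Maff lost their calls with the log2 Xist level (0.62 and -0.16) and kept them with the other covariates. Psmb8 and Psmb10 stayed lower with the Krt14 than with the Inv driver under all 3.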

How the data were processed

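The 10 libraries are bulk RNA sequencing of sorted mouse epidermal cells, in 5 groups of 2 taken from the titles. The submitters' processing notes name STAR, HTSeq and the build GRCm38 (mm10). Neither tool versions nor the strand setting were found there (not given in the sources used here). Values deposited by the authors are a normalized score per gene, whole numbers with totals of 20011195 to 20014054 per library, made by scaling reads and rounding up: 99.3% to 99.9% of values under 20000 equal whole reads times 1 step of 2.25 to 2.60, within the rounding.

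The fit was of log2(value + 1) over all 5 groups, by limma 3.58.1 in R 4.3.3 (eBayes with trend, 5 residual degrees of freedom, two-sided). Benjamini-Hochberg adjustment ran over the 21995 genes with at least 10 in at least 2 libraries, and a gene was called at an adjusted p under 0.05. Fold changes are on the log2(value + 1) scale, which understates the change of low genes. The script was tested on simulated data. Gene positions and exon lengths are from GENCODE M21 (GRCm38), and levels per kb divide by the length of all exons merged. Floors of 3 reads cover counting error only, since reads counted after PCR, without molecular identifiers, can be copies of 1 molecule.

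The members, lists and motifs were chosen with earlier results of these data known. Up to 8 called genes with the largest change and a mean of at least 50 are named in each comparison, with Psmb5, Psmb6 and Psmb7, and up to 4 called genes of each list, of which 1 is not reported here; the genes with the highest and lowest mean of each role are given by library and the extremes per kb. Alternatives changed the pseudocount, filter, scaling, groups fitted, replicate block and library left out, used limma-voom on the recovered reads or the log2 Xist level as covariate, and, chosen after seeing the data, the linear Xist or summed Y-linked level; all covariates were also run on the pathway lists after seeing the data. Same-numbered libraries did not deviate together (correlations across genes of -0.054 to 0.041).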

Additional observations from a re-analysis of the deposited data

How the results depend on the processing

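The pseudocount, the filter, quantile normalization and limma-voom each left the counts of called proteasome genes within 1.5 times those reported. With the replicate block the counts were 28, 3, 5, 0 and 9 for Survivin LOF, Survivin GOF against Inv SmoM2, Krt14 against Inv SmoM2, Krt14 SmoM2 at 8 against 6 weeks and Survivin GOF against Krt14 SmoM2, so the block changed no count by more than 1.5 times. Rescaling by the median of ratios gave 2 calls between 8 and 6 weeks, and in Krt14 against Inv SmoM2 it took the median to 0.0454 and Psmb7 to 0.0137. A fit to only the 2 groups compared gave 0 for Survivin GOF against Inv SmoM2 and 3 against Krt14 SmoM2, beside 258 and 2660 over all tested genes. The log2 Xist covariate gave 1, 0 and 0 calls for Survivin LOF, Survivin GOF against Inv SmoM2 and Survivin GOF against Krt14 SmoM2, beside 941, 40 and 202 calls over all tested genes. Xist did not overlap between the groups in any of these comparisons, so its level and the group cannot be told apart. The medians of the proteasome genes became 0.0004, 0.12 and 0.19, beside 0.28, 0.10 and 0.20 for all genes. Psmb5 became 0.33, 0.42 and 0.32. In Survivin LOF it took Psmc5 to 0.11 and Psmb6 to 0.0438, and in Survivin GOF against Krt14 SmoM2 it took Psmc5 to 0.26, Psmb6 to 0.0012 and Psmb7 to 0.0089. The linear Xist covariate gave 17, 2 and 1 calls (5083, 1800 and 2012 over all genes) for Survivin LOF, Survivin GOF against Inv SmoM2 and 8 against 6 weeks. The Y-linked sum gave 2 and 1 for the last 2 of these (2889 and 2485 over all genes). Of the 17 calls for Survivin LOF, 2 were higher and 15 lower. Leaving out 1 library, with a lone library assumed to vary like the others, gave 16 to 25 calls for Survivin LOF, 1 to 16 for Survivin GOF against Inv SmoM2, 2 to 3 for Krt14 against Inv SmoM2, 0 in each case between 8 and 6 weeks and 3 to 15 for Survivin GOF against Krt14 SmoM2. Psmb6 between 8 and 6 weeks ranged from -0.0856 to 0.0425 (above 0 without replicate 1 of either group), and Psmb5 in Krt14 against Inv SmoM2 from -0.0211 (without Inv SmoM2 replicate 2) to 0.5183. Of 624 values of named genes under these alternatives, 531 kept their direction and side of the threshold, 76 lost the call, 5 gained one and 12 changed sign. The cause of these changes was not tested. The recovered depth of 7693155 to 8870758 reads limits genes near the floor, such as Psma8 and Psmb11.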
